A study of Mus musculus with 3 samples.

Results

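Histone acetyltransferases, deacetylases and acetyl-lysine readers were measured in mouse cortical neurons. The group is a list of 32 genes, taken by name and not by level: 11 zinc-dependent histone deacetylases, 7 sirtuins, 12 acetyltransferases and coactivators and 2 readers. All 32 had a value, out of 18130 protein-coding genes that did. The samples were 3 libraries of total RNA from cortical neurons labelled WT for genotype and CON for treatment and numbered 1 to 3 as in their titles; they are called replicates here. The labels give no age, strain or way of culture. The series title concerns DNA supercoiling and topoisomerases in the neuronal genome, and with 1 group there was no contrast between conditions. The comparisons are therefore between genes inside each library.

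Acetyl groups on histone lysines are added by acetyltransferases, removed by deacetylases and bound by bromodomain proteins. Zinc-dependent deacetylases work in corepressor complexes or shuttle out of the nucleus, while sirtuins need NAD and act in the nucleus, the cytosol or mitochondria. In neurons these enzymes are known for their part in activity-dependent transcription, differentiation and memory.

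Levels are in TPM, the authors' length-scaled relative abundance. Each gene takes the value of its coding transcript of most reads. The table scales all of its 84660 transcripts together, and overlapping transcripts share reads, so values of 1 transcript per gene are lower than TPM scaled over genes. Replicates 1 to 3 had 33482424, 29587920 and 29083543 reads, respectively, in these transcripts of coding genes. Values with an error are means ± SD (n = 3 libraries). The labels do not state whether these libraries are separate cultures or animals, so their spread may be technical. The smallest two-sided exact sign-flip permutation p that 3 libraries allow is 0.25, so no difference could reach 0.05.

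Sequence bears on 2 of the deacetylases. Hdac1 and Hdac2 encode the paralogous catalytic subunits of the main nuclear corepressor complexes, and Hdac1 has a near-identical processed pseudogene, Gm10093, on chromosome 17. Over 1444 aligned bases, Gm10093 and the Hdac1 coding sequence were identical at 1435, or 99.4%. Hdac1 and Hdac2 shared 984 of 1278 aligned coding bases, or 77.0%. A window of 50 bases shows how a read from Hdac1 can match the pseudogene in full and still differ from Hdac2. Capitals mark bases that differ from Hdac1, and all windows are GRCm38 sequence read along the coding strand. The windows lie at chr4:129534677-129534726 (minus strand) for Hdac1, chr17:78491631-78491680 (plus strand) for Gm10093 and chr10:36985127-36985176 (plus strand) for Hdac2.
Hdac1: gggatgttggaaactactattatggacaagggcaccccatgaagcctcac
Gm10093: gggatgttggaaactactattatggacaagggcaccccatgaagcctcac
Hdac2: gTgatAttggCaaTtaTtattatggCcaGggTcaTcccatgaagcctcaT
Gm10093 had no difference from Hdac1 here, and Hdac2 had 10. A window with differences in all pairs lies at chr4:129523016-129523065 for Hdac1, chr17:78491973-78492022 for Gm10093 and chr10:36989186-36989235 for Hdac2, on the same strands.
Hdac1: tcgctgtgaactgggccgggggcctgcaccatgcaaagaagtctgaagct
Gm10093: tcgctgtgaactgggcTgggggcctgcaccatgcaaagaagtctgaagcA
Hdac2: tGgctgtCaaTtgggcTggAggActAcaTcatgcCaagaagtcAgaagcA
Counted from 1 at the left end, Gm10093 carried C17T and T50A relative to Hdac1, and Hdac2 carried both of these among its 11 differences.

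All 32 genes had a mean of at least 1 TPM, the minimum for calling a gene expressed, which 61.8% of all coding genes reached. Their median was 7.44 TPM, against 2.91 over all coding genes and 8.29 over expressed coding genes. The genes spanned 42.1-fold, from Hdac1 at 1.34 ± 0.12 TPM to Brd2 at 56.4 ± 3.28. With each value divided by the share of its sequence that is unique in the genome, counted in 50-mers, the span was 24.2-fold, Hdac7 was the lowest and 10 genes lay below Hdac1. There were 14 genes above 10 TPM, 5 between 5 and 10, and 13 under 5. In the order of levels, 9 of 31 neighbouring genes differed in the same direction in every library by more than the SD of that difference. These included Brd2 over Hdac2, Hdac2 over Hdac3, Hdac11 over Sirt2, Sirt2 over Hdac9 and, on the deposited values, Hdac7 over Hdac1. The other 22 neighbours did not differ beyond their spread.

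**Figure D1:**
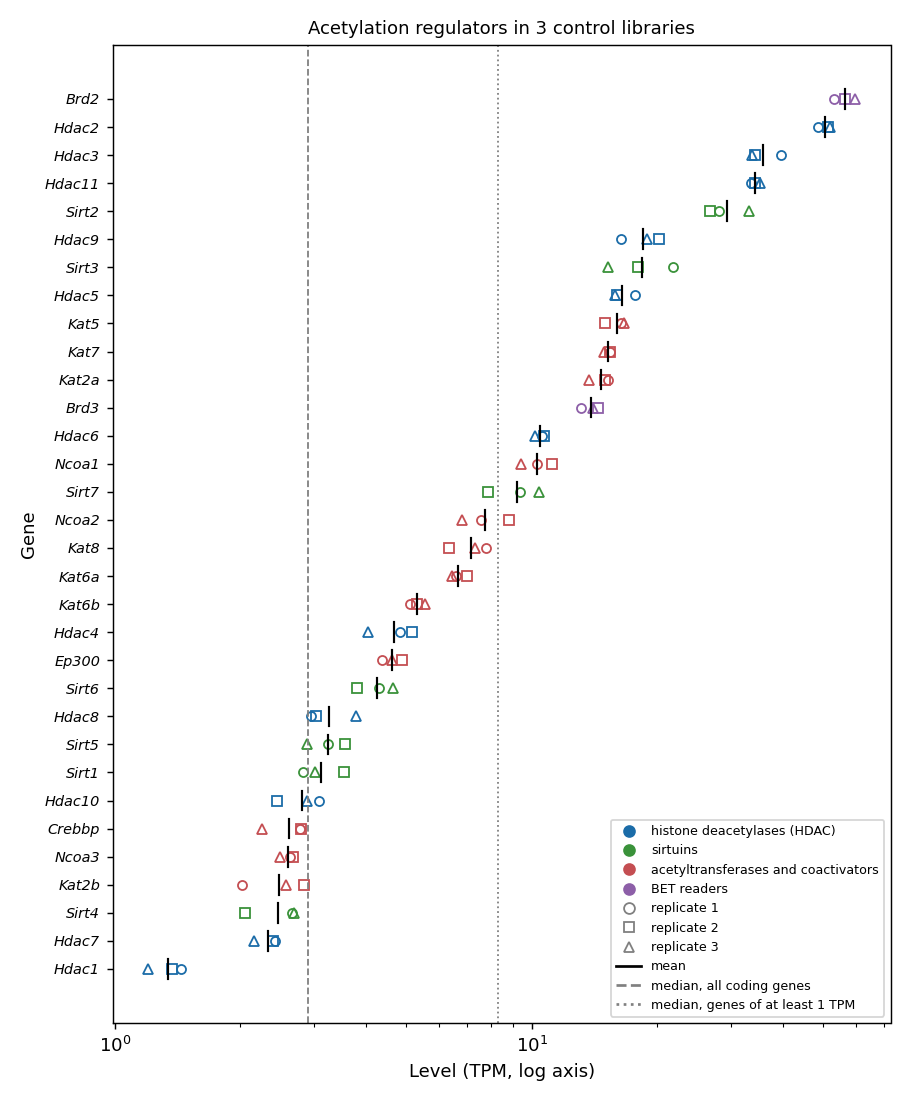
Level of each of the 32 genes in TPM on a log axis, with 1 point per library and genes in order of their mean. Brd2 and Hdac2 stand at the top with means of 56.4 and 50.6 TPM, and Hdac1 stands lowest at 1.34 on the deposited values.

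Class I deacetylases, the nuclear zinc-dependent enzymes, were carried by Hdac2 and Hdac3. Hdac2 stood at 48.6, 51.4 and 51.9 TPM in replicates 1 to 3, and its mean was 50.6 ± 1.78 (SD, n = 3). Hdac3, the catalytic subunit of the NCoR and SMRT corepressor complexes, stood at 39.6, 34.4 and 33.8 TPM. Hdac8, a class I enzyme known to deacetylate cohesin, stood at 2.95, 3.05 and 3.80 TPM, and Hdac1 at 1.45, 1.37 and 1.203. Each library thus placed Hdac2 above Hdac3 and both of these far above Hdac8 and Hdac1, with no overlap. Hdac2 made up 55.6 ± 2.67% of the summed class I TPM, Hdac3 39.4 ± 2.96% and Hdac1 1.47 ± 0.13%. The Hdac2 level was 38.1 ± 4.81-fold that of Hdac1, a difference of 5.14 ± 0.17 on the log2(TPM + 0.1) scale. With the longest coding transcript of each gene, the Hdac2 value became 13.95 TPM and the difference 3.29 ± 0.23. Hdac3 was 11.2 ± 2.26-fold above Hdac8.

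The low level of Hdac1 rested on 151, 121 and 112 reads in replicates 1 to 3, against 4994, 4451 and 4757 for Hdac2. Of 141 Hdac1 50-mers, 44 occurred once in the genome, or 31.2%. Every one of 138 Hdac2 50-mers did. Gm10093 shared 67 of the Hdac1 50-mers, a pseudogene on chromosome 18 shared 13 and Gm4864 on chromosome 12 shared 7. Gm10093 itself stood at 0.39, 0.42 and 0.24 TPM. How reads that match several places were counted is not given in the sources used here. Divided by its share of unique 50-mers, Hdac1 came to 4.30 ± 0.40 TPM and the difference from Hdac2 to 3.53 ± 0.18 on the log2 scale. Hdac2 remained the higher gene in every library on that scale, and the part of shared sequence in the Hdac1 value was not otherwise tested. Of the other genes, Kat2b had 84.4% unique 50-mers and 30 had at least 90%.

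**Figure D2:**
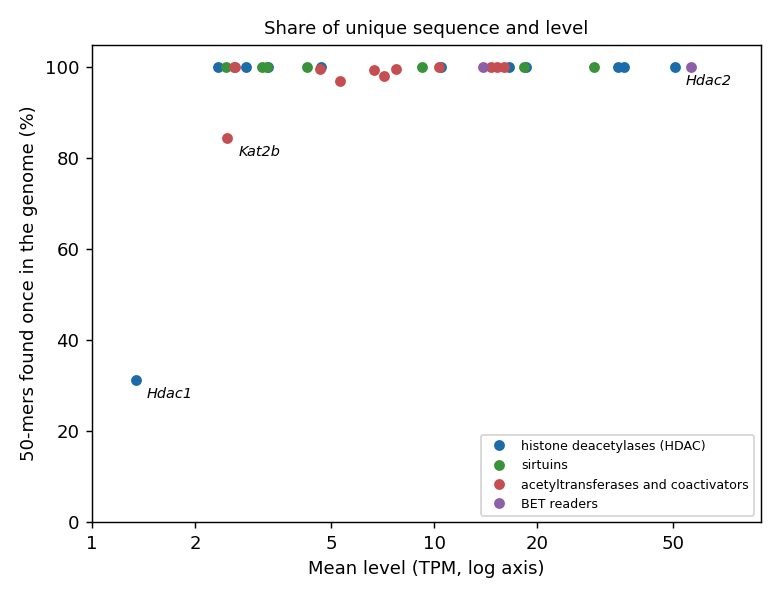
Share of 50-mers found once in the genome, in percent, against the mean level in TPM on a log axis, with 1 point per gene. Hdac1 stands apart at 31.2% and 1.34 TPM, Kat2b lies at 84.4%, and the other 30 genes lie above 90%.

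The class IIa deacetylases shuttle between nucleus and cytoplasm and bind MEF2 transcription factors. Hdac9 stood at 16.4, 20.1 and 19.0 TPM and Hdac5 at 17.7, 15.99 and 15.8. The 2 ranges overlapped, and the sign of the difference was not the same in every library: Hdac5 minus Hdac9 came to -0.16 ± 0.24 on the log2 scale. Without replicate 1 it was -0.29, and without replicate 2 it was -0.074. Hdac4 stood at 4.84, 5.15 and 4.05 TPM, below Hdac5 by 3.56 ± 0.41-fold. Hdac7, known from thymocytes and blood vessels, was the lowest of the class at 2.43, 2.39 and 2.16 TPM. Hdac9 was 7.98-fold above it on average, and the groups of values did not overlap. Hdac9 made up 44.0 ± 3.77% of the summed class TPM, Hdac5 39.3 ± 3.14%, Hdac4 11.1 ± 1.08% and Hdac7 5.54 ± 0.31%.

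Hdac9 was represented in the table by 1 coding transcript, a short form with 12 exons that ends before the exons of the catalytic domain. The short form is known as a MEF2-binding repressor. A long form of 25 exons has 14 exons downstream of the end of the short form and was not analysed here. Of the 4422 exonic bases behind the value, 2375 or 53.7% lie in the last exon of the short form and are absent from the long form. Only that exon was compared. The 5′ end of the short form also lies outside the long form, so this count is a minimum. Reads in the shared exons cannot be assigned to either form. The end of the short form's reading frame is shown as a place where the forms differ. It lies at chr12:34373827-34373901 (GRCm38, minus strand). Lower case marks the 24 shared bases, and capitals mark 48 coding bases that are absent from the long form, together with the stop codon. Of 10 annotated Hdac9 transcripts, 3 hold this stretch, all of them short.
Hdac9: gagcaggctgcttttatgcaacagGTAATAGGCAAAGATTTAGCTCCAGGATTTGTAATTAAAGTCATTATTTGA
Hdac9 was also the longest gene of the 32, at 869.5 kb between its outermost annotated ends. The short form behind its value spans only chr12:34371503-34528889.

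Of the class IIb enzymes, Hdac6, the cytoplasmic deacetylase of tubulin, stood at 10.6, 10.7 and 10.2 TPM. Hdac10, a polyamine deacetylase, stood at 3.10, 2.46 and 2.89. Hdac6 was the higher of the 2 in each library, by 3.77 ± 0.51-fold in ranges that did not overlap. Hdac11, the single class IV enzyme, which removes fatty acyl groups, stood at 33.7, 34.3 and 35.2 TPM. It followed Hdac3 in the order of levels, from which it did not differ beyond the spread. Hdac11 was 10.6 ± 1.19-fold above Hdac8. Over the 11 zinc-dependent deacetylases the median was 10.5 ± 0.25 TPM, and their TPM summed to 180.9 ± 0.67.

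Among the nuclear and cytosolic sirtuins, Sirt2 was the highest. Sirt2, a mainly cytosolic deacetylase of tubulin that is abundant in myelinating cells, stood at 28.2, 26.7 and 33.1 TPM. Sirt7, the nucleolar member, stood at 9.39, 7.85 and 10.4, and Sirt6, a chromatin deacetylase of DNA repair, at 4.31, 3.82 and 4.64. All 3 genes were highest in replicate 3 and lowest in replicate 2. Sirt7 was 2.16-fold above Sirt6 on average, with a steady difference of -1.09 ± 0.06 for Sirt6 minus Sirt7 on the log2 scale. Sirt1, the nuclear deacetylase of many transcription factors, stood at 2.82, 3.56 and 3.02 TPM, and Sirt2 exceeded it 9.49 ± 1.78-fold. Sirt1 was highest in replicate 2, unlike the other nuclear and cytosolic members. Sirt2 made up 63.8 ± 0.86% of the summed TPM of these 4 genes.

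Sirt3, the main deacetylase of the mitochondrial matrix, led the mitochondrial sirtuins at 21.8, 18.002 and 15.2 TPM. Its coefficient of variation of 17.98% was the highest of the 32 genes. Of its exonic bases, 38.7% overlap Psmd13 or Ric8a on the opposite strand. Whether reads were counted by strand is not given in the sources used here, so reads from such overlaps, also in Hdac11 (26.01%) and Kat5 (21.1%), cannot be told apart. Sirt5, which removes succinyl and malonyl groups, stood at 3.25, 3.57 and 2.90 TPM, and Sirt4, which has weak deacetylase activity, at 2.66, 2.05 and 2.70. Sirt3 was 5.67 ± 0.90-fold above Sirt5 in ranges that did not overlap. Sirt5 was above Sirt4 in each library, in ranges that did not overlap, with a difference of 0.38 ± 0.35 on the log2 scale, which is little more than its own spread. Without replicate 2 it was 0.19. The 7 sirtuins had a median of 4.26 ± 0.42 TPM and a sum of 70.0 ± 3.84.

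The paired acetyltransferases Kat2a and Kat2b are alternative catalytic subunits of SAGA-type complexes. Kat2a stood at 15.3, 14.96 and 13.7 TPM and Kat2b at 2.03, 2.85 and 2.58. Kat2a was the higher gene in every library, 6.03 ± 1.30-fold on average, and made up 85.5 ± 2.43% of their sum. Kat2b shares 23 of its 50-mers with Kat2b-ps, a processed pseudogene on chromosome 5, and 21 with the Agtpbp1 locus on chromosome 13. Kat2b-ps stood at 0, 0 and 0.0088 TPM in replicates 1 to 3. The highest transcript value of Agtpbp1 was 65.1, 76.0 and 60.6 TPM, and the part of that locus in the Kat2b value was not tested. Division by the share of unique 50-mers moved Kat2b to 2.94 ± 0.50 TPM and left it below Kat2a. The difference of 2.52 ± 0.29 on the log2 scale became 1.71 with the transcript of highest TPM for each gene and 1.04 with the sum over transcripts.

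In the MYST family, Kat5 and Kat7 stood close together and above the other 3 genes. Kat5, the catalytic subunit of the NuA4 complex, stood at 16.4, 14.98 and 16.7 TPM. Kat7, which acetylates histones at replication origins and promoters, stood at 15.4, 15.4 and 14.9. Kat7 had the smallest coefficient of variation of the 32, 1.78%, and was the single gene whose spread did not exceed the counting SD of its reads. Kat8, the acetyltransferase of the MSL and NSL complexes, stood at 7.79, 6.35 and 7.31 TPM, below Kat5 by 2.25 ± 0.13-fold and below Kat7 by 2.15 ± 0.25-fold. The paralogs Kat6a and Kat6b differed less, with Kat6a at 6.57, 6.998 and 6.45 TPM and Kat6b at 5.10, 5.32 and 5.55. Kat6b minus Kat6a was -0.32 ± 0.09 on the log2 scale, and the ranges did not overlap. All 5 MYST genes lay above the median of all coding genes, 2.91 TPM, as did 25 of the 32. Only Kat5 and Kat7 lay above the median of expressed coding genes, 8.29 TPM, which 15 of the 32 exceeded.

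The coactivator acetyltransferases Ep300 and Crebbp, paralogs recruited by CREB and many other factors, were among the lower genes. Ep300 stood at 4.39, 4.88 and 4.63 TPM and Crebbp at 2.78, 2.80 and 2.26. Ep300 was 1.79-fold above Crebbp on average and carried 64.0 ± 3.005% of their sum of 7.24 ± 0.40 TPM. Crebbp minus Ep300 was -0.81 ± 0.18 on the log2 scale, and -1.22 with the transcript of highest TPM for each gene. The nuclear receptor coactivators Ncoa1, Ncoa2 and Ncoa3 descended in that order in every library. Ncoa1 stood at 10.3, 11.2 and 9.42 TPM, Ncoa2 at 7.57, 8.84 and 6.80, and Ncoa3 at 2.63, 2.68 and 2.497. The ranges did not overlap, and Ncoa1 minus Ncoa2 was 0.41 ± 0.07 on the log2 scale. Ncoa1 was 3.95 ± 0.21-fold above Ncoa3.

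The BET proteins Brd2 and Brd3 bind acetylated histones through paired bromodomains and recruit the transcription machinery. Brd2 stood at 53.1, 56.5 and 59.7 TPM and was above every other gene of the group in each library. Its value rested on 11910, 10684 and 11927 reads. Brd3 stood at 13.2, 14.4 and 14.1 TPM, and Brd2 exceeded it 4.07 ± 0.17-fold, or by 2.02 on the log2 scale. With the transcript of highest TPM for each gene the difference was 3.37. Brd2 is one of the shorter genes at 10.6 kb, against 869.5 kb for Hdac9 over all of its annotated forms.

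In all, 19 pairs of related genes were compared, and 18 had the same sign in each library. The pairs were chosen with earlier results of these data known. How often other pairs of genes keep their sign was not counted, so this number has no background. Hdac5 and Hdac9 were the pair of mixed sign. In 14 pairs the difference was at least 1 log2 unit. Where TPM was summed over every transcript of a gene, which counts shared reads repeatedly, 6 pairs turned direction: Hdac7 and Hdac9, Hdac5 and Hdac9, Sirt5 and Sirt4, Kat6b and Kat6a, and Ncoa1 with Ncoa2 and with Ncoa3. The two-sided exact sign-flip permutation p was 0.25 for each pair of constant sign, and the smallest p adjusted over the 19 pairs by the Benjamini-Hochberg method was 0.264.

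**Figure D3:**
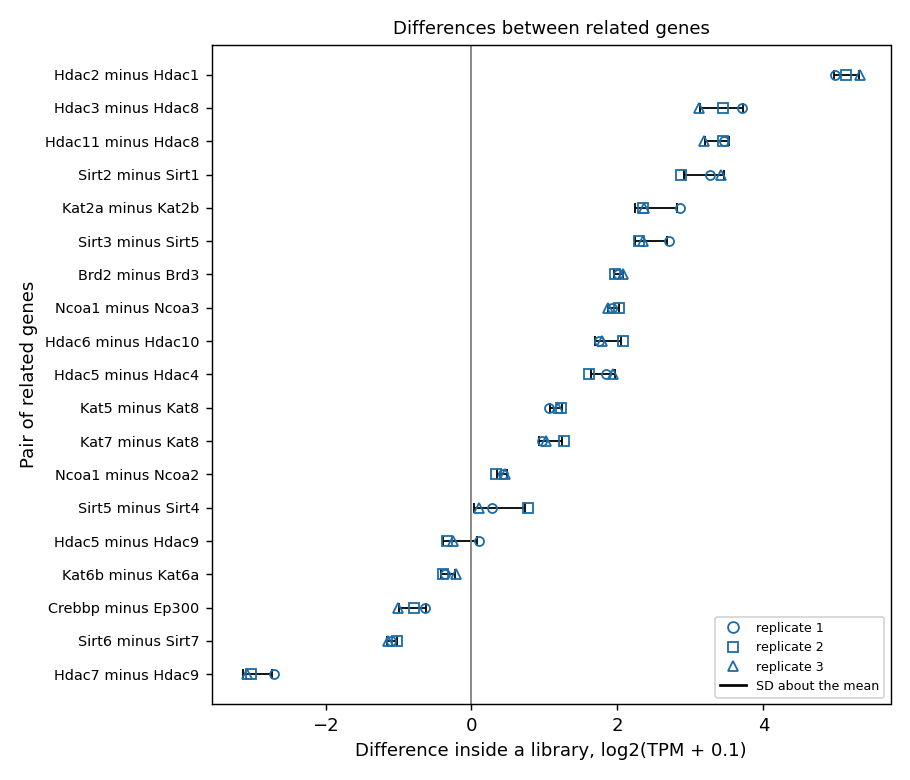
Differences between related genes inside each library in log2(TPM + 0.1), with 1 symbol per library and a bar for the SD about the mean. Hdac2 minus Hdac1 is the widest at 5.14, Hdac7 minus Hdac9 lies lowest at -2.93, and Hdac5 minus Hdac9 crosses 0.

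Relative to the median of all coding genes in the same library, class I deacetylases had a median higher by 1.87 ± 0.07 on the log2 scale. The corresponding value was 1.55 ± 0.10 for class IIa, 1.31 ± 0.08 for the MYST family and 1.38 ± 0.19 for the nuclear receptor coactivators. It was 1.08 ± 0.17 for the nuclear and cytosolic sirtuins and 0.15 ± 0.15 for the mitochondrial ones, which thus stood near the coding median as a class. Against the median of coding genes of at least 1 TPM, the sign turned for both sirtuin groups, at -0.39 and -1.32, for the MYST family at -0.16 and for the coactivators at -0.093. The 12 acetyltransferases and coactivators had a median of 6.79 ± 0.24 TPM and the 18 deacetylases one of 7.01 ± 0.47. The difference of their medians inside libraries was 0.02 ± 0.07 on the log2 scale, with signs that differed between libraries. The summed TPM was 95.4 ± 2.32 for the acetyltransferases and 250.9 ± 3.60 for the deacetylases, which are more numerous.

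Several genes were listed with transcripts nested in one another, which allowed the read density of the remaining stretch to be compared with the inner transcript. The 4163 bases by which the longest Hdac4 coding transcript exceeds a shorter one lie to 95.6% at its 3′ end. They stood at 99.7 ± 8.13% of the density of the shorter transcript. The corresponding share was 98.0 ± 8.33% for Hdac11 and 114 ± 10.9% for Hdac6. It was 102.6 ± 20.8% for Hdac7 and 89.3 ± 6.89% for Kat6b. For Brd3 it was 85.9 ± 19.8% and 85.1 ± 20.9% against different inner transcripts. It was lower in other genes, at 51.4 ± 1.66% for Kat2b, 52.2 ± 3.71% for Hdac8, 66.0 ± 5.97% for Kat7 and 73.5 ± 7.58% for Ep300. For Brd2 it was 28.99 ± 2.31%, against an inner coding transcript of 406 bases at 159 TPM. These stretches were not alike. Of the added bases, 15.4% lay 3′ of the inner transcript in Kat2b, 32.9% in Brd2 and 41.6% in Kat7. In Hdac8 67.3% lay there, and in Ep300 75.8%. Sirt1 was different: the 525 bases that set its chosen transcript apart from a shorter coding transcript held 2 reads over all 3 libraries. The shorter Sirt1 transcript stood at 3.55 ± 0.42 TPM, against 3.13 ± 0.38 for the one chosen by reads. In Hdac2 the 1099 bases upstream of a non-coding transcript of its 3′ part stood at 39.2 ± 1.24% of that transcript's density, in every library between 38.4% and 40.6%. In Sirt7, the 1547 bases that a retained-intron transcript adds stood at 25.02 ± 3.25% of the coding transcript's density.

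The deviation of replicate 2 from the other libraries differed with transcript length. Replicate 2 held the highest value of 14 of the 32 genes, against 40.4% of expressed coding genes, and the lowest of 7, against 25.4%. Replicate 1 was highest for 8 (28.2% of coding genes) and lowest for 10 (33.6%). Replicate 3 was highest for 10 (31.4%) and lowest for 15 (40.9%). Among the 13 genes whose transcript is under 2500 bases, a length set after the values were seen, 7 were lowest in replicate 2, against 41.5% of 4160 coding genes, and 1, Sirt5, was highest, against 18.5%. Among the 19 longer ones none was lowest there, against 15.9% of 7044 coding genes, and 13 were highest, against 53.4%. Sirt4 deviated most, with replicate 2 lower than the mean of the others by -0.37 on the log2 scale, followed by Sirt7 at -0.33. Kat2b at 0.31 and Ncoa2 at 0.30 stood at the other end. The deviation was set against length and GC content across the 32 genes, which share libraries and are not independent replicates. Its Spearman rho was 0.67 with exonic length, 0.75 with gene length and -0.53 with GC content. Over 11204 expressed coding genes these were 0.47, 0.39 and -0.34, so the direction was that of the transcriptome as a whole. The deviation of replicate 1 had a rho of 0.54 with GC content across the 32 genes and 0.36 over expressed coding genes. The part of RNA quality or library preparation in this pattern was not tested.

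**Figure D4:**
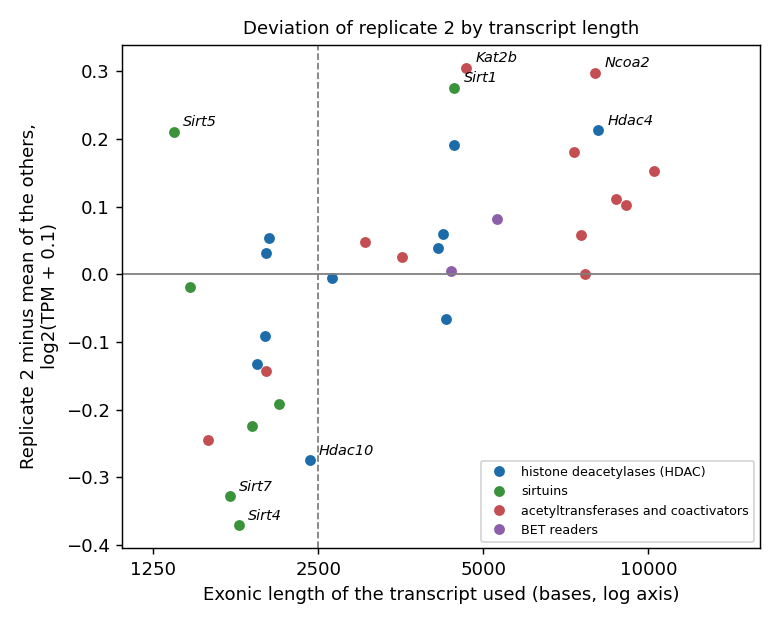
Deviation of replicate 2 from the mean of the other libraries in log2(TPM + 0.1), against exonic length in bases on a log axis, with 1 point per gene and a dashed line at 2500 bases. Sirt4 and Sirt7 lie lowest at -0.37 and -0.33, and Kat2b and Ncoa2 highest at 0.31 and 0.30.

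The coefficient of variation over libraries ranged from 1.78% to 17.98%, with a median of 9.09% against 7.88% over expressed coding genes. In 31 of 32 genes it exceeded the counting SD of the reads, as it did in 87.6% of expressed coding genes. The genes with the widest spread were Sirt3, Kat2b, Sirt4 and Hdac8, of which the last 3 stood under 5 TPM.

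**Figure D5:**
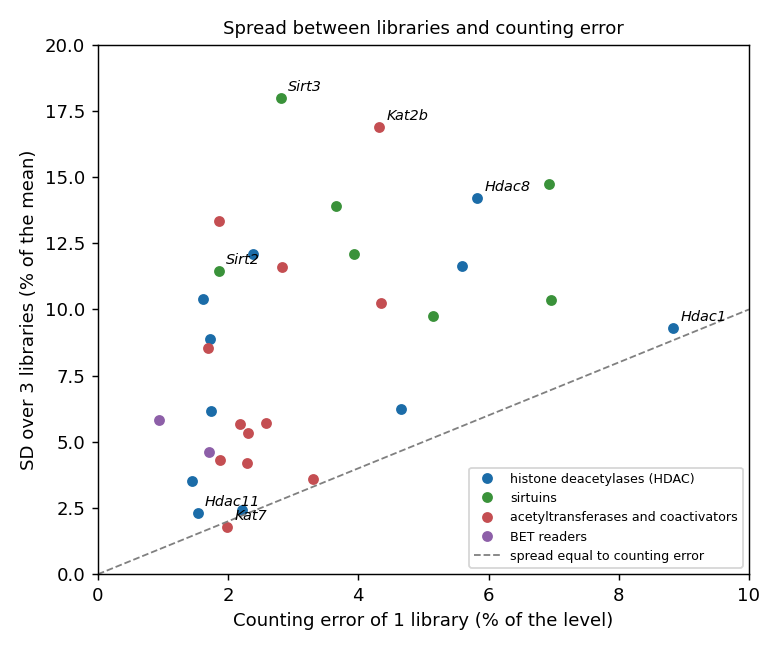
Coefficient of variation over the 3 libraries in percent against the counting SD of 1 library in percent of the level, with 1 point per gene. A dashed line marks a spread equal to the counting SD. Sirt3 stands highest at 17.98% and Kat7 lowest at 1.78%.

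Long and short genes were found at both high and low levels. Of 8 genes over 100 kb, Hdac9 and Ncoa1 stood above 10 TPM, and of 16 genes under 30 kb, 9 did. Lengths are between the outermost annotated ends of a gene, and the Hdac9 level is that of its short form. Spearman's rho between gene length and level was -0.16 across the 32 genes and 0.18 across coding genes, a description across genes of the same libraries.

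Most genes of proteins that work with these enzymes were expressed. Of 32 corepressor partners, 31 reached 1 TPM, with a median of 10.4 TPM. Mef2c, a transcription factor bound by class IIa deacetylases, was the highest at 104.5, 147.5 and 111.9 TPM, followed by the histone-binding subunit Rbbp7 at 69.4 ± 1.77 and Mef2a at 29.2 ± 3.69. Rest, the repressor of neuronal genes in other cells, was the lowest at 0.74 ± 0.04 TPM. All 40 acetyltransferase partners reached 1 TPM, with a median of 7.05, led by Msl1 at 20.9 ± 0.84, a scaffold of the Kat8 complex, Meaf6 at 20.8 ± 1.08 and Ing4 at 20.2 ± 1.53. The lowest of these, Jade2, a Kat7 partner, stood at 1.07 ± 0.19.

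Of 27 other acetyl-lysine readers and bromodomain or YEATS proteins, 25 reached 1 TPM. Trim28 was the highest at 24.9 ± 1.72 TPM, then Yeats4 at 22.5 ± 3.23 and Brd9 at 21.7 ± 1.26, so that no gene of that list reached the level of Brd2. Cecr2 was the lowest at 0.22 ± 0.04. Of 14 other acetyltransferases, 13 reached 1 TPM, with Naa60 at 44.4 ± 1.19, Atf2 at 26.3 ± 2.002 and the tubulin acetyltransferase Atat1 at 23.8 ± 3.29. Esco2, which acetylates cohesin in dividing cells, was the lowest at 0.78 ± 0.16. Of 14 genes that supply acetyl-CoA or NAD, 10 reached 1 TPM. Pdha1 of pyruvate dehydrogenase stood at 116 ± 8.82 TPM, the ATP citrate lyase Acly at 73.7 ± 12.3 and the axonal NAD synthase Nmnat2 at 30.7 ± 3.70. The mitochondrial NAD synthase Nmnat3 was the lowest at 0.064 ± 0.031 TPM.

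Markers of the labelled cell type were present, since all 10 pan-neuronal markers reached 1 TPM and summed to between 2190 and 2495 TPM. Excitatory markers (6 of 6) summed to 398 to 416 TPM and inhibitory markers (6 of 6) to 194 to 294. Astrocyte markers were also detected (8 of 8), with a sum of 425 to 517 TPM. Microglial markers (1 of 6) summed to 1.09 to 2.09 TPM with Tmem119 at 0, and endothelial ones (0 of 6) to 1.13 to 2.04 with Cldn5 at 0. Markers of proliferation (6 of 8) summed to 19.0 to 24.1 TPM. Oligodendrocyte lineage markers (8 of 10) summed to 73.7, 56.2 and 90.5 TPM in replicates 1 to 3, led by Olig1 at 34.4 ± 2.91 and Olig2 at 15.95 ± 6.36, with Mobp lowest at 0.018. Sirt2, at 28.2, 26.7 and 33.1 TPM, had the same order of libraries as that sum. Sirt4, Sirt6, Sirt7 and Kat5 had this order too, so it was not particular to Sirt2. The part of oligodendrocyte lineage cells in the Sirt2 level was not tested. In bulk RNA, fewer cells of a type and less RNA per cell cannot be told apart.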

How the data were processed

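RNA of WT control cortical neurons was extracted with RNeasy columns, and a KAPA RNA HyperPrep kit was used for the libraries, as the labels' protocols state. Per the submitters' processing notes, STAR 2.5.3a, Subread 1.4.6, featureCounts and FastQC 0.11.2 were used with build mm10. The authors deposited TPM values for 84660 transcripts in 1 table. Transcript IDs were matched to GENCODE M21 on GRCm38, with 98.1% matched and 1643 not, and a gene takes the coding transcript with the highest mean TPM times exonic length. TPM times length gave whole reads, within 0.01, for 98.7% of 219755 values above 0. For 7174 transcripts the ends of the table's own release were used where these gave whole reads. Use of strand could not be settled: 8 transcripts lying within an exon of an opposite-strand gene had a median level of 0.0646% of that gene's, but the 1 such transcript on the same strand also had 0.574%. Uniqueness was searched with 50-mers every 10 bases on 22 chromosomes.

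Differences are of log2(TPM + 0.1) inside each library, which understates differences of low genes, with exact sign-flip permutation tests. The named genes are all 32, the 3 highest and the lowest of each partner list, and the 2 highest and the lowest of each marker list, of which only some are printed. The 32 genes, pairs and lists, and the rule, were chosen with earlier results of these data known. The alternatives were pseudocounts of 1 and 0.01, the sum over transcripts, the transcript with the highest TPM, the longest coding transcript, rescaling to nuclear coding genes, a minimum of 1 TPM for the background, other minimums and leaving out each replicate. Division by the share of unique 50-mers was added after seeing the data. The statistics were tested on simulated data. These held counting error only and large planted differences, so added spread between libraries and small differences were not covered. Python 3.11.15, numpy 2.4.6, pandas 2.3.3, scipy 1.17.1, Biopython 1.88 and matplotlib 3.10.9 were used.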

Additional observations from a re-analysis of the deposited data

How the results depend on the processing

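No paired analysis was possible because the labels give 1 group, so no replicate number is shared between groups; differences between genes were taken inside each library. Of 190 differences between pairs recomputed under alternatives, 6 reversed, all when TPM was summed over every transcript of a gene, which counts shared reads repeatedly: Hdac7 minus Hdac9 became 0.62, Hdac5 minus Hdac9 3.82, Sirt5 minus Sirt4 -2.34, Kat6b minus Kat6a 1.201, Ncoa1 minus Ncoa2 -2.51 and Ncoa1 minus Ncoa3 -0.51. The other 13 pairs kept their direction under every alternative run, but with that sum Kat7 minus Kat8 moved from 1.09 to 4.42, Sirt3 minus Sirt5 from 2.45 to 5.07, Hdac5 minus Hdac4 from 1.80 to 3.19, Crebbp minus Ep300 from -0.81 to -2.45 and Sirt6 minus Sirt7 from -1.09 to -2.41. The class medians against the coding median moved with that sum to 2.55 for class I, 2.02 for class IIa, 2.54 for nuclear and cytosolic sirtuins, 1.26 for mitochondrial sirtuins, 1.45 for MYST and 1.07 for nuclear receptor coactivators. With a pseudocount of 1 they moved to 1.68 for class I, 1.34 for class IIa, 0.91 for nuclear and cytosolic sirtuins, 1.10 for MYST and 1.16 for the coactivators. Against genes of at least 1 TPM they were 0.40, 0.078, -0.39, -1.32, -0.16 and -0.093 in the order of the sum, since the background is then higher. The transcript with the highest TPM gave 1.74 for class I and 1.19 for MYST, and the longest coding transcript 1.24 for class I. Acetyltransferases minus deacetylases became -0.61 with the sum and -0.13 with the transcript of highest TPM; the cause was not tested. With a minimum of 5 TPM, 19 genes of 32 were called expressed, against 40.9% of all coding genes. Depth limits Hdac1 most, at 112 to 151 reads a library.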
